A study of Mus musculus with 3 samples.

Results

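The histone genes of mouse bone marrow were followed in 3 RNA sequencing libraries. An entry of the deposited tables was counted as a histone gene where its symbol began with Hist1h to Hist4h or with H2af, or was H3f3a, H3f3b, H1f0 or H1fx, which gave 82 of 23282 entries. Of these, 68 were replication-dependent genes (6 of type H1, 18 of H2A, 19 of H2B, 12 of H3 and 13 of H4) and 14 were replacement variants (2 of H1, 10 of H2A and 2 of H3). The classes rest on the symbols alone, and the entries Hist3h2bb-ps (H2B) and H2afy3 (replacement H2A), annotated as pseudogenes, are counted in them. The libraries came from the vehicle group, which is male wild type C57BL/6 mice, an inbred laboratory strain, aged 6 weeks and given sterile water by oral gavage over 28 days, with bone marrow cells taken on day 29 after lysis of red blood cells. The design text names a second arm given Asari Radix et Rhizoma, a herbal medicine from wild ginger. That arm was not used here, and treatments are therefore not compared. Whether the 3 libraries came from 3 mice is not given in the labels, so spread between them may be technical.

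Nucleosomes hold DNA around a core of the histones H2A, H2B, H3 and H4, and linker histone H1 binds the DNA between cores. Replication-dependent histone genes lie in clusters, have no introns and are transcribed mainly in S phase. Their mRNAs normally end in a short stem-loop, which the stem-loop binding protein Slbp recognises, in place of a poly(A) tail. Replacement variants are encoded by scattered genes, most of them with introns, are made throughout the cell cycle and end in a poly(A) tail. Some replication-dependent genes can also give polyadenylated transcripts, as known from differentiating cells. In a library primed at poly(A), an mRNA that ends in a bare stem-loop has no tail to prime on. The labels name a Lexogen Quant-Seq kit, a kit family known for oligo(dT) priming. The catalogue number in the labels may belong to another kit of this maker, so priming at poly(A) and 1 fragment per transcript are not settled, and neither was checked on the reads.

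The stem-loop could be read in most replication-dependent genes. In the GENCODE annotation of GRCm38, the assembly also called mm10, 51 of the 68 genes had an annotated transcript running at least 46 bases past the stop codon, and 44 of these 51 held the stem-loop pattern within 150 bases of it. The pattern searched had 16 bases, which were GG, 2 free letters, CTTTT, 1 free letter, AG, 2 free letters and CC. The other 17 could not be read, since no genome sequence was used. H2afx, for the DNA damage variant H2A.X and known from human cells to give both tailed and stem-loop mRNAs, was the 1 replacement variant that held the pattern. Over all tested genes read in the same way, histone genes included, 0.415% of 10855 held it. The sequences below are shown as examples of each histone type and of the most abundant members, each as 30 bases that end with the stem-loop in capitals.

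Hist1h2ap (chr13:21833029-21833058, minus strand): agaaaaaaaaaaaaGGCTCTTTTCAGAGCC
Hist1h2ao (chr13:21810884-21810913, plus strand): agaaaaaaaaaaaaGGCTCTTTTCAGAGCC
Hist1h1e (chr13:23621782-23621811, minus strand): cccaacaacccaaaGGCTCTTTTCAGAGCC
Hist1h2ad (chr13:23574881-23574910, plus strand): tgtataaaaacaaaGGCTCTTTTCAGAGCC
Hist1h2ae (chr13:23570668-23570697, minus strand): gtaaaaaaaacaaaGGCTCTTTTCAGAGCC
Hist1h2ac (chr13:23683477-23683506, minus strand): acttcaaacccaaaGGCTCTTTTCAGAGCC
Hist1h1c (chr13:23739498-23739527, plus strand): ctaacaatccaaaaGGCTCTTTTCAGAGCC
Hist1h4d (chr13:23581936-23581965, plus strand): acccaaaaaccaaaGGCCCTTTTCAGGGCC
Hist1h2bk (chr13:22036286-22036315, plus strand): cgtctagcaccaaaGGCTCTTTTAAGAGCC
Hist2h3c1 (chr3:96247313-96247342, plus strand): ccattccccacaaaGGCTCTTTTCAGAGCC
H2afx (chr9:44335226-44335255, plus strand): cacacctccacaaaGGCCCTTTTAAGGGCC

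The letters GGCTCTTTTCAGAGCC were found in 26 replication-dependent genes, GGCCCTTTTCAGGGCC in 7 and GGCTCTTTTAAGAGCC in 6. Hist1h2ap and Hist1h2ao, shown first, had a run of 12 A immediately before the stem-loop. No other of the 44 genes had a run of 10 or more A in the 60 bases before it, a feature that was looked for after the levels were known.

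Replication-dependent genes held more reads than replacement variants in all 3 libraries, and most of those reads lay in H2A genes. Values are given as CPM, reads per 1000000 reads of the library. The replication-dependent genes summed to 7900, 8734 and 10132 CPM in replicates 1, 2 and 3, and the replacement variants to 2440, 2154 and 2087 CPM. These sums did not overlap between the classes. As a share of all reads, replication-dependent genes held 0.790% (95% Clopper-Pearson interval 0.784 to 0.796%), 0.873% (0.867 to 0.880%) and 1.01% (1.01 to 1.02%). Replacement variants held 0.223% ± 0.019 (SD, n = 3). Such intervals cover counting error only. The ratio of the class sums was 3.24, 4.05 and 4.85, with a mean of 4.05 ± 0.81 (SD, n = 3). Divided by annotated exon length, the ratio was 14.7, 18.5 and 22.0 in the same order of libraries.

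**Figure D1:**
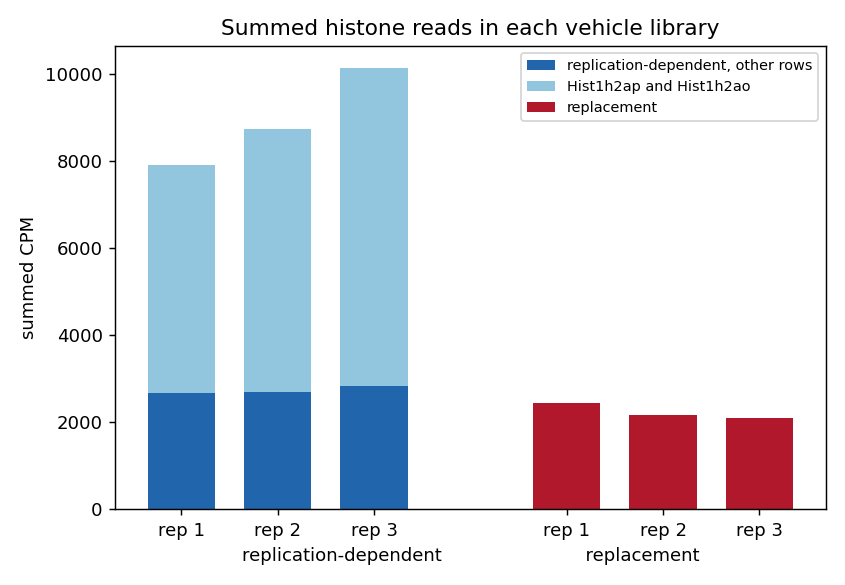
Summed CPM of histone genes in each vehicle library, replication-dependent genes on the left and replacement variants on the right. Each bar is 1 library, and the light part of the left bars is Hist1h2ap and Hist1h2ao and differs between libraries, while the dark part lies between 2664 and 2831 CPM.

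A pair of H2A genes held most of the class difference. Hist1h2ap (ENSMUSG00000094777.2, chr13:21833026-21833507, minus strand) had 3500, 4024 and 4852 CPM and ranked 13 of all entries. Hist1h2ao (ENSMUSG00000094248.1, chr13:21810465-21810944, plus strand) had 1735, 2024 and 2449 CPM and ranked 19. Both encode replication-dependent H2A and lie in the large histone cluster of chromosome 13. Together they held 66.3%, 69.2% and 72.1% of all replication-dependent reads. Without them the replication-dependent genes summed to 2664, 2686 and 2831 CPM, and the class ratio was 1.09, 1.25 and 1.36, which as a log2 ratio was 0.29 ± 0.16 (SD, n = 3). Leaving the pair out was chosen after the values were seen.

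Medians over single genes, pooled over the histone types, ran the other way. The median replication-dependent gene had 7.51 CPM over 68 genes, and the median replacement variant had 57.7 CPM over 14. By annotated exon length these pooled medians were 12.1 and 30.7 CPM per kb. Within types this direction held for H3 only, with medians of 5.06 CPM for replication-dependent genes and 460 CPM for replacement variants. For H2A the medians were 136 and 44.0 CPM, and for H1 62.5 and 15.0 CPM, in the same order of classes. H2B and H4 had no replacement variant here. Annotated models of some replication-dependent genes run far past the coding part (up to 7425 bases), which lowers their value per kb.

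**Figure D2:**
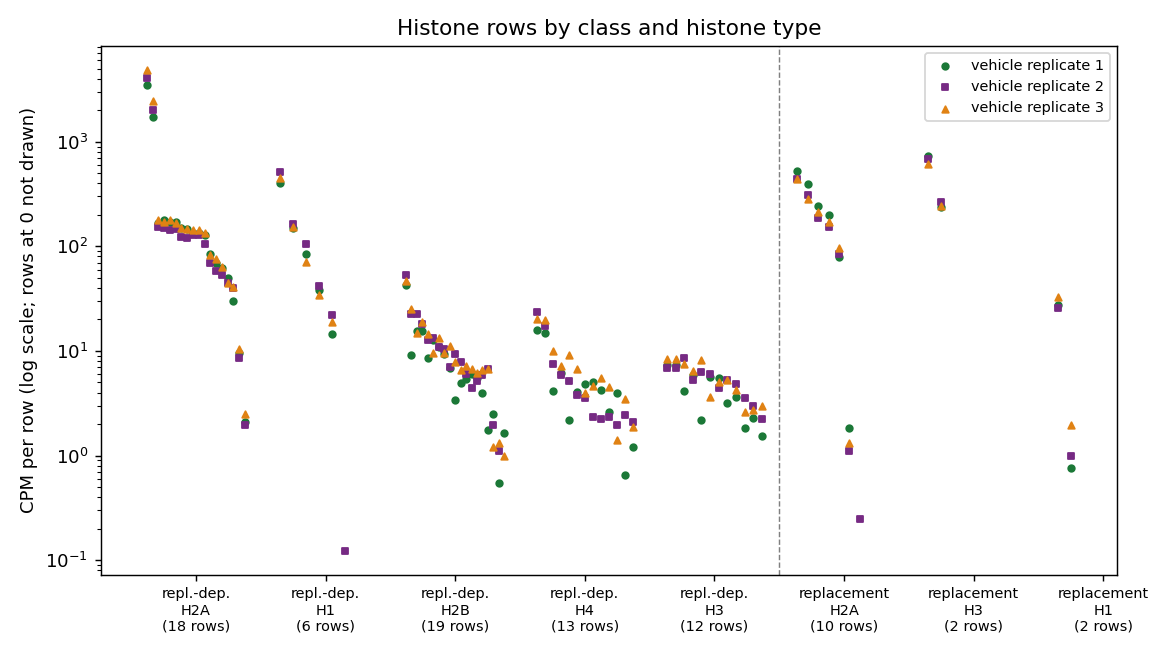
CPM of every histone gene in each vehicle library on a log scale, replication-dependent types left of the dashed line and replacement types right of it, with genes ordered by mean level within a type. Hist1h2ap and Hist1h2ao stand at the top of the replication-dependent H2A group. Left of the dashed line, the H2B, H3 and H4 groups lie at or under 53.8 CPM, the highest value of Hist1h2bc.

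Among core histone genes, H2A genes held nearly all reads although nucleosomes carry the core histones in equal parts. Of the replication-dependent reads, H2A genes held 87.7% ± 1.48, H1 genes 8.49% ± 1.28, H2B genes 2.25% ± 0.23, H4 genes 0.923% ± 0.042 and H3 genes 0.669% ± 0.048 (SD, n = 3 for each). The H2A sum was 6927, 7526 and 9031 CPM, against 167, 220 and 214 CPM for H2B, and H2A stood 39.3 ± 4.3 times above H2B. It stood 95.1 ± 3.8 times above H4 and 132 ± 11 times above H3. Per kb of exon length these ratios were 59.4 for H2B, 114 for H4 and 180 for H3. Without Hist1h2ap and Hist1h2ao, H2A still stood 8.31 ± 1.71 times above H2B (11.6 times per kb). Some of the other H2A genes share sequence with this pair, so reads of the pair may count among theirs. For H3 the replacement variants held most reads, since replication-dependent H3 was 0.052, 0.067 and 0.077 times the sum of H3f3a and H3f3b.

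Neighbouring H2A and H2B genes, which are read in opposite directions from a short shared region, showed the same asymmetry. In the annotation, 13 pairs of an H2A and an H2B gene stood head to head, 172 to 305 bases apart. The H2A gene was the higher one in all 3 libraries in 13 of 13 pairs. Many of the H2A genes share sequence, as given below, so these are not 13 separate readings. The pair with the fewest H2B reads was Hist3h2a and Hist3h2bb-ps, the latter annotated as a pseudogene. In this pair Hist3h2a had 49.8, 44.5 and 45.1 CPM, and Hist3h2bb-ps had 1.64, 0 and 0.985 CPM. Over the pairs the ratio of mean CPM, H2A over H2B, had a median of 12.2. It ran from 2.96 for Hist1h2ac over Hist1h2bc to 354 for Hist1h2ap over Hist1h2br. Hist1h2br had 10.9, 10.9 and 13.2 CPM, and Hist1h2bq, the partner of Hist1h2ao, had 8.62, 12.7 and 14.6 CPM. Both H2B partners lay within the range of the other 17 H2B genes, which was 0.874 CPM for the pseudogene Hist3h2bb-ps to 47.8 CPM. Per kb of exon length the H2A gene was higher in 13 of 13 pairs, with a lowest ratio of 1.38 for Hist1h2ac over Hist1h2bc and a median of 17.1.

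**Figure D3:**
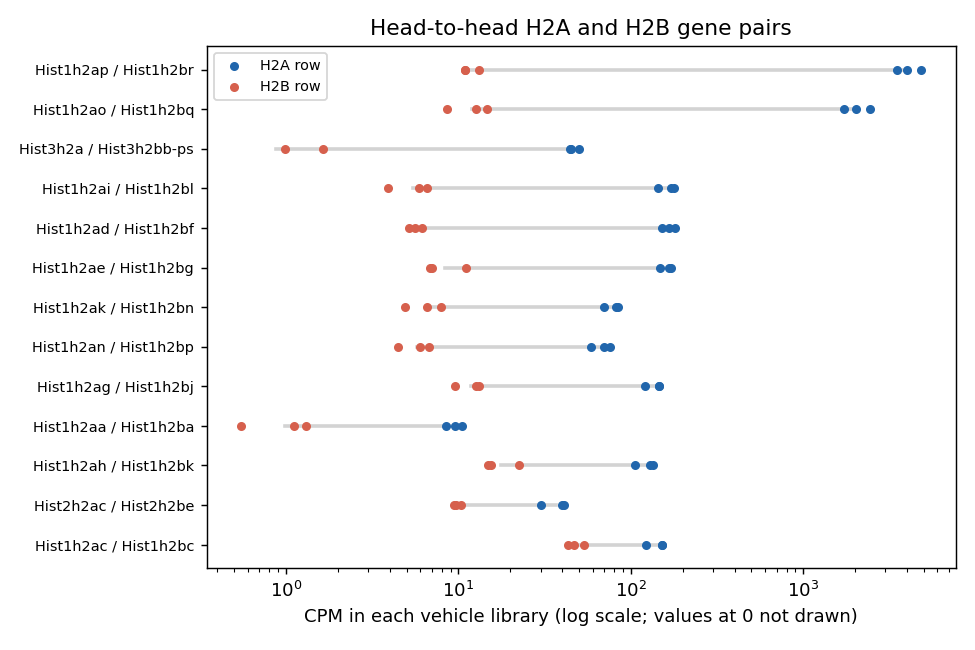
CPM of 13 head-to-head gene pairs in each vehicle library on a log scale, with the H2A gene of a pair in blue and its H2B neighbour in red, ordered by ratio. The blue points lie to the right in every pair, from 2.96-fold at the bottom to 354-fold at the top.

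The promoter window of Hist1h2ap is shown because its 300 bases share an unbroken run of 200 bases with that of Hist1h2ao. These genes also had the same order of libraries. Their transcripts are nearly identical, as given below, so reads may be shared and their orders are not separate readings. The window is the RefSeq sequence of GRCm38.p6, from 250 bases before the gene start to 50 after it, with CCAAT on either strand and TATAAG in capitals.

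Hist1h2ap promoter window (chr13:21833426-21833725, minus strand): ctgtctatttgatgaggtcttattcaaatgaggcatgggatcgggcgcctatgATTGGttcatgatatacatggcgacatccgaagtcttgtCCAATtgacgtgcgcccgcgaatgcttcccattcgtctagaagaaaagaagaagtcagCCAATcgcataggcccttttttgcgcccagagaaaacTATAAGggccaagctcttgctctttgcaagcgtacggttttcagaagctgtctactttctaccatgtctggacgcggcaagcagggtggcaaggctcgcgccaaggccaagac

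Over the 62 replication-dependent genes with such a window, CCAAT on either strand was found in 85.5%, against 9 of 12 replacement variants and 37.4% of all 32851 promoters of the same length. TATAAA was found in 56.5% of the replication-dependent genes, 8.33% of the replacement variants and 13.6% of all promoters, TATAAG in 37.1%, 8.33% and 7.43% of these groups, and the octamer ATTTGCAT in 22.6%, 8.33% and 1.74%. All were searched on both strands, and a TATAAA and a TATAAG cannot start at the same base. By type, CCAAT was in 18 of 18 H2A, 16 of 16 H2B, 10 of 10 H3, 6 of 6 H1 and 3 of 12 H4 windows, and the octamer in 7 H2A and 7 H2B windows and in no H1, H3 or H4 window. A match is a string of letters and no measured binding site.

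The remaining abundant replication-dependent genes lay far below the leading pair. Whether a gene's 3 libraries differed more than counting noise allows was tested with a two-sided exact binomial test, run for every library against the rest, with Benjamini-Hochberg adjustment over all 11833 genes with at least 30 reads in total. A gene was called at an adjusted p under 0.05. Hist1h1e, for linker histone H1.4, had 400, 512 and 447 CPM and was the most abundant gene of its class outside H2A. Its reads were spread beyond counting noise (exact binomial test, adjusted p = 3.16e-20), and it was highest in replicate 2. Hist1h2ad had 167, 153 and 179 CPM, Hist1h2ab 178, 149 and 170 CPM, and Hist1h2ai 171, 143 and 177 CPM. In each of these H2A genes replicate 2 was the lowest. The same held for Hist1h2ae with 171, 148 and 167 CPM, Hist1h2ac with 151, 123 and 151 CPM, and Hist1h2ag with 146, 121 and 146 CPM. All 6 of these H2A genes passed the exact binomial test over 3 libraries, and none did without replicate 2 (adjusted p from 0.0937 to 1). Hist1h1c, for H1.2, had 148, 164 and 152 CPM and did not pass the exact binomial test (adjusted p = 0.0588), though it did with TMM scaling, explained below (adjusted p = 3.29e-05).

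Lower H2A, H1 and H2B genes followed. Hist2h2aa1 and Hist2h2aa2 each had 135, 129 and 142 CPM and did not pass the test. Hist1h1b, for H1.5, had 84.3, 106 and 70.5 CPM, again highest in replicate 2 (exact binomial test, adjusted p = 5.99e-11). Hist1h2bc was the highest H2B gene, with 43.1, 53.8 and 46.5 CPM, and its call by the exact binomial test was lost without replicate 1 (adjusted p = 0.0859) or replicate 2 (adjusted p = 0.407). Hist2h2bb was the least even of the H2B genes named here, with 9.16, 22.5 and 25.0 CPM (exact binomial test, adjusted p = 2.71e-16), and replicate 1 stood apart below the other two. Without replicate 1 it was not called (exact binomial test, adjusted p = 0.448). Replication-dependent H4 genes ran from 1.72 to 19.7 CPM and replication-dependent H3 genes from 2.23 to 7.51 CPM.

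Replacement variants were led by H3.3 and H2A.Z. H3f3b, 1 of the 2 genes for the replication-independent H3.3, had 725, 681 and 607 CPM, and H3f3a, the other one, had 240, 264 and 244 CPM. On library totals the first was highest in replicate 1 and the other in replicate 2, and with TMM scaling both were highest in replicate 2. The ratio H3f3b over H3f3a was 3.02, 2.58 and 2.48. H2afz, for H2A.Z.1, had 523, 443 and 436 CPM, and H2afv, for H2A.Z.2, had 244, 186 and 211 CPM, so that H2afz stood 2.19 ± 0.16 times above H2afv (SD, n = 3). H2afy, for the large variant macroH2A1, had 399, 313 and 285 CPM and was the least even replacement variant by its adjusted p (7.01e-38). All 3 of these H2A variants were highest in replicate 1. By the exact binomial test, H2afz was no longer called without replicate 1 (adjusted p = 0.622) and H3f3a without replicate 2 (adjusted p = 0.689).

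Further replacement variants were lower. H2afx had 200, 153 and 172 CPM. H2afj, for H2A.J, had 78.9, 85.0 and 95.9 CPM, and H1f0, for H1.0, a linker histone known from non-dividing cells, had 27.6, 25.9 and 32.9 CPM. Both were highest in replicate 3 on either scaling. Their calls by the exact binomial test were lost for H2afj without replicate 1 (adjusted p = 0.0526) or 3 (adjusted p = 0.277), and for H1f0 without replicate 2 (adjusted p = 0.0909) or 3 (adjusted p = 0.646). H2afy2, for macroH2A2, averaged 1.43 ± 0.38 CPM and H1fx, for H1.10, 1.24 ± 0.64 CPM (SD, n = 3), and neither passed the test.

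Per kb of exon length the order changed below the leading pair. Hist1h2ap had 8559 and Hist1h2ao 4312 CPM per kb, followed by Hist1h2ai with 417, Hist1h2ab with 350 and Hist1h2ah with 304. The annotated models of Hist1h2ai and Hist1h2ah end 0 and 2 bases past the stop codon, and a short model raises the value per kb. H2afz was the highest replacement variant with 263 CPM per kb, at rank 8 of the 75 genes tested, and H3f3b had 225. If the kit gave 1 fragment per transcript, the values not divided by length are the ones to compare.

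Genes known from testis were low except Hist1h2aa, and the germ cell markers were low too. Hist1h2aa had 9.49, 8.51 and 10.5 CPM, above the median of 7.51 CPM over the 68 replication-dependent genes. Hist1h2ba averaged 0.990 CPM, and Hist1h1t, for the testis linker histone H1t, had 1 read in all. H2afb1, H2afb2 and H2afb3, for short H2A variants of the testis, had 0 reads in each library, which allows up to 0.327, 0.370 and 0.328 CPM. H2afy3, annotated as a pseudogene, had 2 reads. Summed over the 7 germ cell markers, levels were 2.51 to 4.92 CPM.

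The share of histone genes called was near that of all genes on library totals and above it with TMM scaling. Of all 11833 genes tested, 56.5% were called. Among histone genes, 42 of 75 tested (56.0%) were called, which is close to that background, and 7 of the 82 were under the read minimum. With TMM, 50 of 75 histone genes (66.7%) were called, against 51.8% of all genes, and with a library total without Rn45s and globin entries 62.7%, against 52.8%. Between pairs of libraries the test called 27 histone genes without replicate 1 (38.0%, against 34.8% of all genes), 25 without replicate 2 (34.7%, against 39.0%) and 36 without replicate 3 (50.7%, against 38.5%). Replication-dependent genes gave 34 of 65 (52.3%) and replacement variants 8 of 10. By replication-dependent type the calls were 13 of 18 for H2A, 3 of 5 for H1, 7 of 17 for H2B, 2 of 12 for H3 and 9 of 13 for H4. The leading pair was far past counting noise, with an adjusted p of 1.49e-203 for Hist1h2ao and one for Hist1h2ap that was too small for the computer to hold (written as 0).

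Which library was high differed between the classes. Replication-dependent genes were highest in replicate 3 in 34 of 65 cases, against 22.8% of all genes tested, and lowest there in 7 of 65 cases, against 42.4%. They were lowest in replicate 1 in 30 of 65 cases, against 20.0% of all genes. Replacement variants were highest in replicate 1 in 6 of 10 cases, near the 49.2% of all genes. On library totals the median gene was 0.14 higher on the log2 scale in replicate 1 than in the other libraries, and scaling by TMM, a trimmed mean of gene ratios, brought this to 0.01. With TMM, 44 of 65 replication-dependent genes were highest in replicate 3, against 33.7% of all genes, and 5 of 10 replacement variants were highest in replicate 1, against 32.6%.

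**Figure D4:**
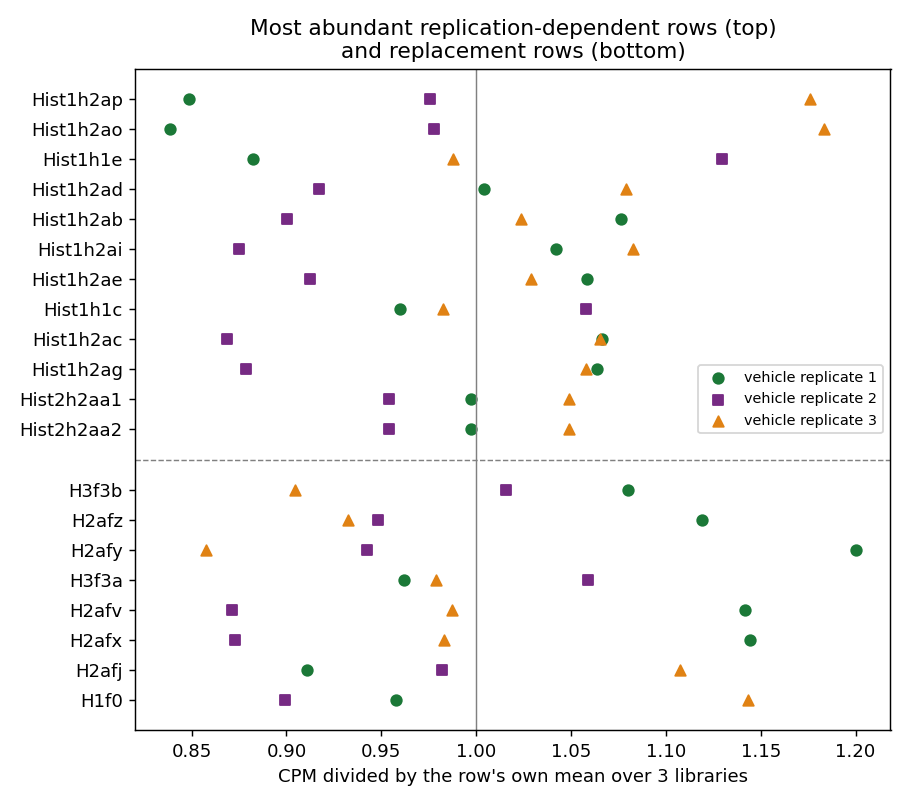
CPM of each gene divided by its own mean over the 3 vehicle libraries, for the 12 most abundant replication-dependent genes above the dashed line and the 8 replacement variants with at least 300 reads below it. Hist1h2ap and Hist1h2ao are lowest in replicate 1 and highest in replicate 3, most other H2A genes are lowest in replicate 2, and H2afz and H2afy are highest in replicate 1.

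H2A genes outside the leading pair were mostly lowest in replicate 2. Of these 16 genes, 15 were lowest in replicate 2, against 37.6% of all genes, and the leading pair was lowest in replicate 1. All 5 H1 genes tested were highest in replicate 2, against 27.9% of all genes. With TMM scaling 12 of the 16 H2A genes were lowest in replicate 2, against 34.4% of all genes, and all 16 were highest in replicate 3. These genes share reads, as given below, so they are not 16 separate readings.

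Markers of marrow cell types, which check the labelled tissue, also differed between the libraries. Late neutrophil markers (8 genes, led by S100a9 and S100a8) summed to 74607, 58131 and 77393 CPM, and secondary granule markers (7 genes, led by Ngp) to 16631, 12772 and 16219 CPM. All 8 and 6 of 7 of these were lowest in replicate 2, against 37.6% of all genes, as were 15 of the 16 H2A genes. With TMM, all 8 and 4 of 7 of these markers were lowest there, against 34.4% of all genes. Erythroid markers (9 genes, led by Hba-a1) summed to 67095, 99491 and 100528 CPM. That sum was lowest in replicate 1, as were Hist1h2ap and Hist1h2ao. Of the 9 markers, 7 were lowest there, against 20.0% of all genes. The other marker sets did not share 1 order of libraries. Primary granule markers (5 genes) summed to 2053, 1403 and 1817 CPM, and 5 of 5 were lowest in replicate 2 on either scaling. B lineage markers (8 genes) summed to 662, 664 and 505 CPM. Megakaryocyte and platelet markers (6 genes) summed to 477, 391 and 390 CPM. T and NK markers (6 genes) summed to 75.9, 64.9 and 81.8 CPM. The part of cell composition in the histone values was not tested, and in bulk marrow fewer cells of a type and less RNA per cell cannot be told apart.

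Genes of histone pre-mRNA processing summed to 1585, 1445 and 1391 CPM, and to 1484, 1473 and 1457 CPM with TMM, so their sum was not highest in replicate 3, where the replication-dependent sum was. Slbp, which binds the stem-loop, had 32.7, 31.8 and 25.2 CPM and was lowest in replicate 3 on both scalings (exact binomial test, adjusted p = 0.00905). Of 22 tested genes of this list 16 were called, against 56.5% of all genes. In replicate 3, 12 of 22 were lowest, against 42.4% of all genes (11 of 22 with TMM, against 32.4%), and 3 of 22 were highest, against 22.8% (6 of 22 with TMM, against 33.7%). Snrpd3, an Sm protein of spliceosomal and U7 particles, had 220, 191 and 200 CPM. Srrt, which links the cap-binding complex to RNA processing, had 178, 142 and 152 CPM, and Casp8ap2, also called FLASH and part of histone locus bodies, had 134, 131 and 114 CPM.

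Other lists are read against the same shares of all genes, 56.5% called and 42.4% lowest in replicate 3. Of 13 genes of cleavage and polyadenylation 10 were called, led by Pabpc1, the cytoplasmic poly(A) binding protein, with 2232, 2619 and 2181 CPM. Of 26 histone chaperones and exchange factors 21 were called, led by Atrx, which with Daxx deposits H3.3, with 731, 813 and 649 CPM. S phase genes summed to 2245, 2301 and 2093 CPM, with 16 of 26 called and 17 of 26 lowest in replicate 3. With TMM their sums were 2103, 2346 and 2192 CPM and 11 of 26 were lowest in replicate 3, against 32.4% of all genes. Their most abundant member was Mcm7, a subunit of the replicative helicase, with 349, 329 and 353 CPM. Genes of G2 and mitosis, led by Mki67 with 1159, 1340 and 1051 CPM, summed to 4379, 4413 and 3904 CPM, with 14 of 18 called. With TMM these sums were 4101, 4499 and 4090 CPM, while the replication-dependent sum was 7398, 8904 and 10613 CPM. On either scaling the S phase and mitotic sums were highest in replicate 2 and the replication-dependent sum in replicate 3, over only 3 libraries. Hist1h2ap and Hist1h2ao held most of the replication-dependent sum, and without them it was 2664, 2686 and 2831 CPM on library totals. On the same scale the replication-dependent H1 sum (685, 845 and 723 CPM) was highest in replicate 2. So was the H2B sum (167, 220 and 214 CPM), while the H2A, H3 and H4 sums were highest in replicate 3.

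The coding parts of many of these genes are nearly identical, so reads may be shared between them. The entries Hist2h2aa1 and Hist2h2aa2 held identical reads in every library (1239, 1048 and 1299), as did Hist2h3c1 and Hist2h3c2 (67, 56 and 76). Allowing a difference of 5% gave 6 such pairs, adding Hist1h2ai with Hist1h2ab, Hist1h2ae with Hist1h2ab, Hist1h2ag with Hist1h2ac, and Hist1h4n with Hist1h2be. The last pair joins an H4 and an H2B gene.

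Shared sequence was measured as the share of a gene's 50-base stretches that also stand in a transcript of another histone gene, in the same annotation. The median share was 73.0% for replication-dependent H2A, 57.2% for H3, 40.1% for H2B, 39.5% for H4 and 1.10% for H1, against 6.41% for replacement H2A and 0% for replacement H3 and H1. Read length is not given in the sources used here. With 75-base stretches the H2A median was 68.0%. Hist1h2ap shared 93.1% of its stretches with Hist1h2ao, and genes that shared over 50% held 84.8% of replication-dependent reads. Hist1h2br and Hist1h2bq were also alike, with 97.3% of the stretches of Hist1h2bq found in Hist1h2br, yet both were low.

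The division of reads within the leading pair was constant. Hist1h2ap held 66.9% of the reads of both genes in replicate 1 (95% Clopper-Pearson interval 66.4 to 67.3%), 66.5% in replicate 2 (66.1 to 67.0%) and 66.5% in replicate 3 (66.1 to 66.8%), with overlapping intervals. Levels of either gene alone are uncertain for that reason, and their sum is the firmer value. Hist1h1e overlaps Hist1h2be by 496 bases on the same strand, and reads there cannot be assigned to 1 of them. Gene models on the opposite strand overlap many histone genes, among them H3f3a (Gm17275 and H3f3aos), H2afy (Gm47071) and H1f0 (Gm49544). Such models cover the whole of Hist2h2bb (Gm20628), Hist2h2aa1 (Gm20633) and Hist2h2aa2 (Gm20632), and 138 bases of Hist1h2ap (Gm44466) and Hist1h2ao (Gm19658). Since no strand setting is given, reads of either strand cannot be told apart there. On the same strand, Trim17 spans Hist3h2a and Gm20634 spans Hist2h3c1. H2afx shared 6.14% of its stretches with Hist1h2ab, whereas H3f3a, H3f3b, H2afz and H2afv shared none with other histone genes.

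Annotated transcript ends did not order the replication-dependent genes by level. In 22 of the 44 genes with a stem-loop the annotated transcript ran at least 100 bases past it, with a median of 7.38 CPM, and in the other 22 it ended sooner, with a median of 9.34 CPM. AATAAA, the usual polyadenylation signal, stood within 1500 bases of the stop codon of an annotated transcript in 16 replication-dependent genes, with a median of 6.84 CPM. It was also found in 8 replacement variants, with a median of 150 CPM, and in 74.4% of all tested genes read in the same way. Neither Hist1h2ap nor Hist1h2ao had AATAAA in an annotated transcript, and their annotated ends lay 3 and 31 bases past the stem-loop. Annotated ends may miss longer transcripts, and the genome beyond them was not read.

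Runs of A were also read, as a description made after the values were seen. A run of 10 or more A in an annotated transcript was found in 4 of 68 replication-dependent genes, which were Hist1h2ap (12 A), Hist1h2ao (12 A), Hist1h2ac (15 A) and Hist1h2be (11 A). Their mean levels were 4125, 2070, 141 and 17.5 CPM, with a median of 1106 CPM, against 7.06 CPM for the 64 genes with shorter runs. Types were not matched in that comparison, and of the 4 named genes all but Hist1h2be are H2A genes. The median over all 18 replication-dependent H2A genes was 136 CPM. For replication-dependent H2B, H3 and H4 genes it was 6.88, 5.06 and 4.11 CPM. These 64 include 17 genes whose annotated transcripts could not be read for a stem-loop, so a run before it could not be seen. Hist1h2ap and Hist1h2ao also share most of their sequence, so the 4 genes are not 4 separate readings. H3f3b (12 A) and H2afy (10 A) were the replacement variants with such a run, with a median of 501 CPM, against 15.1 CPM for the other 12. These 12 include H2afb1, H2afb2 and H2afb3 with 0 reads and H2afy3 with 2. Among all tested genes with a protein-coding transcript in the annotation, 19.2% had a run of 10 or more A. The 11 H2A genes with a readable stem-loop ran from 37.0 to 4125 CPM, and the pair with 12 A directly before the stem-loop, as shown above, was the highest of them. Shorter runs of A stood directly before it in others, such as 5 A in Hist2h2ac, the lowest of them. Whether priming took place at that run was not tested, since read positions were not used here.

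**Figure D5:**
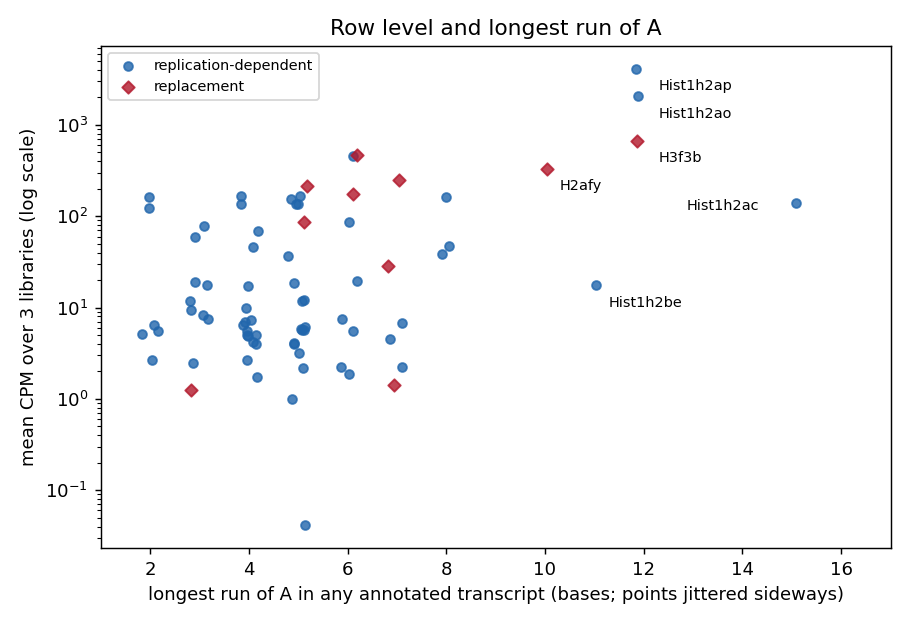
Mean CPM over the 3 vehicle libraries on a log scale against the longest run of A in any annotated transcript, with replication-dependent genes as circles and replacement variants as diamonds. Genes with runs of 10 or more A are named, and they lie between 17.5 CPM (Hist1h2be) and 4125 CPM (Hist1h2ap).

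The libraries held 9168435, 8104828 and 9137125 reads, so that 3 reads correspond to 0.327 to 0.370 CPM. Rn45s, the ribosomal RNA precursor, took 18.6 to 20.3% of reads. Markers of skeletal muscle, a tissue that could be carried over, summed to 8.21 to 9.75 CPM.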

How the data were processed

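Bone marrow RNA of 3 vehicle libraries was measured by sequencing with a Lexogen Quant-Seq kit from 500 ng of total RNA, per the labels' protocols. Bowtie2, bedtools and mm10 are named in the submitters' processing notes, while versions, normalization rule, strand setting, read length and gene models were not given in these sources. The authors deposited 1 log2 value per gene and library, which the values themselves show to be log2(x + 1), where x is a read count per 1000000 units of a library size the authors scaled. Values were whole multiples of 1 read for 100% of entries within 1e-06, so whole reads were recovered and given as CPM of recovered reads.

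Classes and per-library sums were formed from the symbols. The exact binomial test used the smallest of 3 p-values times 3, with Benjamini-Hochberg adjustment over all genes with at least 30 reads, and was tested on simulated counts. No dispersion model was used, so the test sets the spread between libraries against counting noise alone. Positions, transcript sequences and exon lengths are from GENCODE M21 on GRCm38, which matched 82 of 82 genes, and promoters are from RefSeq, which matched 74. Genes with at least 30 reads could be named, in order of level. The histone genes, gene lists and tests were chosen with earlier results of these data known. Computations ran in Python 3.11.15 with numpy 2.4.6, pandas 2.3.3 and scipy 1.17.1. Alternatives covered scaling, read minimum, class membership, length and each left-out library.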

Additional observations from a re-analysis of the deposited data

How the results depend on the processing

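Leaving out Hist1h2ap and H3f3b, the most abundant gene of each class, lowered the replication-dependent share of reads to 0.480% and the replacement share to 0.156%, and the log2 ratio of the class sums to 1.62. A library total without Rn45s and globin entries raised the shares to 1.33% and 0.330%. The log2 ratio was 4.18 per kb of exon length, 0.29 without Hist1h2ap and Hist1h2ao (added after seeing the data) and 0.28 as a difference of mean log2(CPM + 0.1) over all genes. It reversed to -4.26 as a difference of median log2(CPM + 1) over genes with reads and to -0.49 as a difference of mean log2(CPM + 1) over all genes. Such differences compare genes, while the main ratio compares sums of reads, and the cause of the reversal was not tested. Leaving out 1 library gave shares of 0.832 to 0.943% for replication-dependent genes and 0.212 to 0.230% for replacement variants, log2 ratios of 1.86 to 2.15, and 25 to 36 called histone genes against 42, with fewer libraries to differ. The number called was 27 without replicate 1 and 25 without replicate 2. TMM and median-of-ratios scaling called 50 of 75 (66.7%), against 51.8% of all genes. A tolerance of 5% gave 6 pairs of entries with like reads in place of 2. Of 24 genes followed one by one, 10 kept their side of the threshold in every setting, and the H2A genes Hist1h2ab, Hist1h2ac, Hist1h2ad, Hist1h2ae, Hist1h2ag and Hist1h2ai were not called without replicate 2 (adjusted p of 0.0937 for Hist1h2ad to 1 for Hist1h2ac). Hist1h1c was called under TMM (adjusted p = 3.29e-05, exact binomial test). Depth limits the lowest genes, and none of the replication-dependent H3 genes reached 10 CPM. No paired analysis was possible because only 1 group was analysed here.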
